A study of Mus musculus with 4 samples.

Results

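The genes described here encode amino acid transporters, that is, all probes for genes of the solute carrier families 1, 3, 6, 7, 36, 38 and 43 on the arrays. Probes were taken by gene symbol and not by their signal, though the choice of these genes was made with earlier results of these data known. The rule took 110 of the 41174 probes, which carry 62 gene symbols, and 44 of these genes had a probe bright enough to be tested, among 18478 tested genes in all. *Slc7a6os*, which is encoded next to *Slc7a6* on the opposite strand and is not known as a carrier, entered through its name and was kept.

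CD8αβ+ intraepithelial lymphocytes (IELs) of the small intestine were compared with CD8αβ+ splenocytes (SPLs) on 1-color Agilent arrays of the mouse genome, with 2 arrays per group and 1 sample on each. Both groups came from untreated male wild-type mice, which the labels give as 8 to 12 weeks old, and no group carried an engineered allele. According to the methods, the cells were sorted as CD45+CD3+CD8α+CD8β+TCRβ+ and each sample pooled several mice, so that the spread between arrays is a spread between pools. Each slide held an array of both groups, IEL replicate 1 with SPL replicate 2 on slide 1 and IEL replicate 2 with SPL replicate 1 on slide 2.

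Amino acid carriers move amino acids across the plasma membrane, the brush border of enterocytes and the lysosomal membrane. Activated T cells are known to raise the essential amino acid exchanger of SLC7A5 and its heavy chain SLC3A2, together with the glutamine carrier SLC1A5, which feed protein synthesis and the kinase complex mTORC1. A lack of amino acids acts through the kinase GCN2 and the transcription factor ATF4, which raises the transcription of carriers and of biosynthetic enzymes such as asparagine synthetase.

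The sorted cells carried the RNA of T cells on all 4 arrays. The 9 T cell markers, *Cd8a* and *Cd8b1* among them, were above background throughout, and their summed levels were 728 and 708 in IEL replicates 1 and 2 and 691 and 662 in SPL replicates 1 and 2, in multiples of each array's 75th percentile. Markers of other cells differed between the arrays. The sum over 16 epithelial markers was 36.3 and 8.96 in the IELs and 4.79 and 2.59 in the SPLs, and the sum over 4 Paneth cell markers was 215 in IEL replicate 1 and between 5.14 and 7.33 on the other arrays. The 4 red cell markers summed to 1.06 in IEL replicate 1, against 74.3 in IEL replicate 2 and 98.1 and 115 in the SPLs. The 4 B cell markers were also lowest in IEL replicate 1, at 3.54, against 19.5 in IEL replicate 2 and 24.9 and 19.0 in the SPLs. The 6 macrophage and neutrophil markers summed to 47.6 and 66.2 in the IELs and 79.5 and 86.6 in the SPLs, and most of the sum in IEL replicate 1 came from *Lyz2*, while the neutrophil gene *S100a8* had log2 levels of -6.41 and 2.34 in the IELs and 2.79 and 3.08 in the SPLs. Every marker on these lists was above background on at least 1 SPL array. IEL replicate 2 was closer to SPL replicate 1 (Pearson r = 0.992 over the tested probes) than to IEL replicate 1 (r = 0.946), so that the differences of slide 1 and slide 2 are given beside each other below.

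To find out which carriers differed between IELs and SPLs, each gene was compared on its normalized log2 level, which is the log2 of the processed intensity minus the array's 75th percentile. A level of 0 is therefore the 75th percentile of that array, and levels are compared between arrays and not between genes. Of the 44 tested genes, 23 were higher on both IEL arrays than on both SPL arrays, as were 24.6% of all tested genes, and 7 were lower on both, as were 24.6% of all tested genes. The groups of the remaining 14 overlapped. Of the 44 genes, 8 were not above background on all 4 arrays and were tested through the group where they were measured, among them *Slc1a2* and *Slc38a8* of the 23 and *Slc6a4*, *Slc7a11*, *Slc38a5* and *Slc6a19* of the 7. The differences of these 8 are fitted values whose size is not exact. Among the 36 genes above background on all arrays, 21 were higher and 3 were lower. The shares of all genes under this filter are not given here, so that these 2 counts are a description only. The mean log2 fold change was above 0 for 30 of the 44 genes, against 49.8% of all genes, and its median was 0.35, against -0.002 for all genes. The fitted values reached from -3.40 for *Slc6a19* to 2.02 for *Slc6a8*. In bulk samples, fewer cells of a type and less RNA per cell cannot be told apart.

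No carrier passed the test. With limma, 0 of 44 genes had an adjusted p under 0.05, as did 0% of all genes, and the adjusted p of the carriers lay between 0.634 and 0.983. Without adjustment limma gave 4 higher carriers (*Slc6a8*, *Slc1a2*, *Slc38a8* and *Slc43a3*, against 4.89% of all genes) and 1 lower carrier (*Slc6a4*, against 0.985% of all genes). Of these, *Slc1a2*, *Slc38a8* and *Slc6a4* were not above background on every array. The methods' t-test gave 3 other higher carriers (*Slc1a6*, *Slc3a1* and *Slc38a9*) and 0 lower ones without adjustment, and 0 after it. Over all 27937 tested probes, that t-test gave 470 higher and 349 lower without adjustment. With 2 arrays against 2, an exact two-sided permutation test of a single gene cannot give a p below 0.33. IEL replicate 1 stood apart in many of these genes. Without IEL replicate 2, when the lone IEL array is assumed to vary as the SPLs did, 12 carriers passed (limma, adjusted p from 0.0034 to 0.042, against 0.419 to 1.00 for the carriers under the other alternatives). *Slc6a8*, *Slc38a7*, *Slc43a3*, *Slc3a2*, *Slc7a5* and *Slc36a4* were then higher in IEL replicate 1 (8.22% of all genes), and *Slc6a19*, *Slc38a5*, *Slc7a11*, *Slc43a2*, *Slc7a7* and *Slc36a3* were lower (11.5% of all genes).

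Dim probes need care. The 37 carrier probes that were above background on no array had median processed intensities of 1.66, 1.68, 1.58 and 1.75 units on IEL replicates 1 and 2 and SPL replicates 1 and 2, but after scaling their median difference was 0.56 on the log2 scale in favor of the IELs. The part of this offset in the differences of the dim genes was not tested. Among the 17 carriers with a mean level of at least -2, a limit chosen after the data were seen, 10 were higher on both IEL arrays (22.1% of all genes of that brightness) and 2 were lower (28.0%), with a median of 0.36. Among the 27 dimmer carriers, 13 were higher (28.5%) and 5 were lower (19.4%), with a median of 0.31. With a normexp background correction the median over the carriers reversed to -0.70, while the median of all genes moved by -0.31, and 7 carriers were higher and 5 lower on both IEL arrays. The mean background fitted by that method was -158 and -20.9 units on the IEL arrays and -680 and -296 on the SPL arrays. Spots far below their local background numbered 3 and 3 on IEL replicates 1 and 2 and 16 and 3 on SPL replicates 1 and 2. Without such spots (called normexp on fewer spots below) the median was 0.37, with 26 carriers higher and 4 lower, while the median of all genes moved by 0.14. The shares of all genes with these corrections are not given here, so that their counts are a description only.

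**Figure D1:**
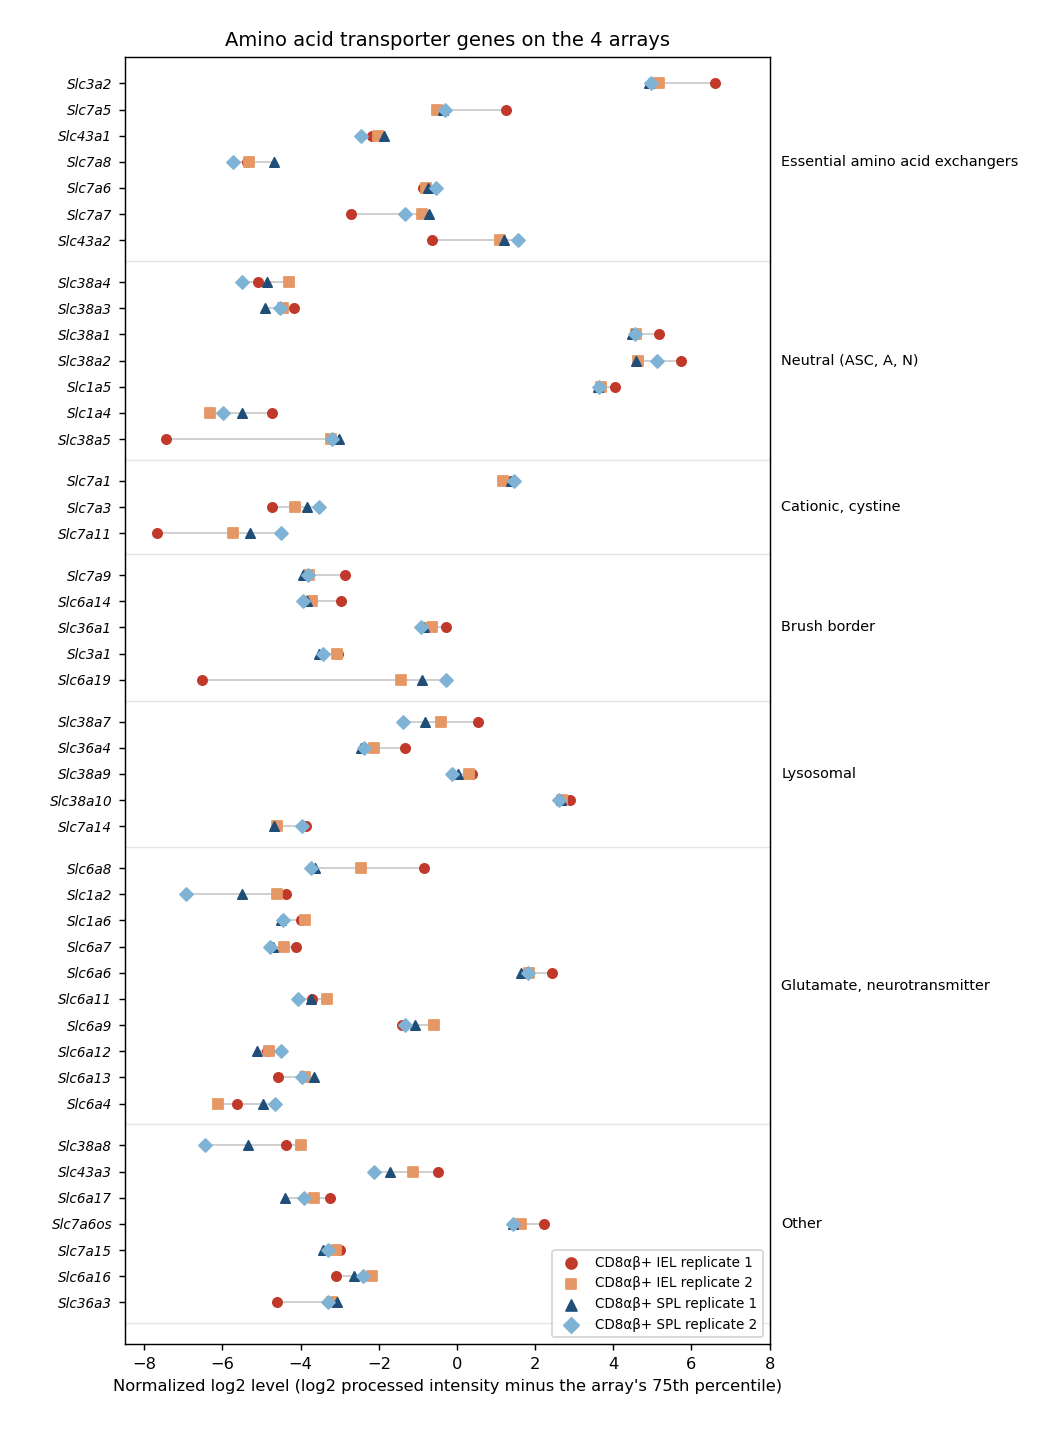
Normalized log2 levels (horizontal axis) of the 44 tested carrier genes, grouped by role, with 1 symbol for each of the 4 arrays and a gray line over the range of a gene. *Slc36a1* is drawn once, with the brush border genes. The 2 SPL arrays and IEL replicate 2 lie close together for most genes, and IEL replicate 1 stands apart for *Slc6a19*, *Slc38a5*, *Slc6a8*, *Slc3a2* and *Slc7a5*.

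The exchangers of essential amino acids import leucine, isoleucine, phenylalanine and tryptophan into lymphocytes. All 7 genes on this list were tested, with a median log2 fold change of -0.13. On both IEL arrays 1 was higher and 2 were lower, against 24.6% of all genes in each direction. The heavy chain *Slc3a2* (CD98), which brings its light chains to the cell surface, had levels of 6.61 and 5.18 in IEL replicates 1 and 2 and of 4.91 and 4.97 in SPL replicates 1 and 2. Both IEL arrays were above both SPL arrays, by 1.64 on slide 1 and by 0.27 on slide 2 (mean log2 fold change 0.95, SE 0.53, a 1.94-fold difference). Its light chain *Slc7a5* (LAT1), the leucine importer of activated T cells, had levels of 1.25 and -0.52 in the IELs and -0.36 and -0.32 in the SPLs. Only IEL replicate 1 was high, and the groups overlapped (log2 fold change 0.70, SE 0.64, with 1.57 on slide 1 and -0.16 on slide 2). Leaving out IEL replicate 1 turned the difference to -0.18.

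None of the other exchangers of this list was higher on both IEL arrays. *Slc7a6* (y+LAT2), which exports arginine in exchange for neutral amino acids, had levels of -0.87 and -0.80 in the IELs and -0.74 and -0.54 in the SPLs, a difference of -0.20. The related *Slc7a7* (y+LAT1) gave -2.72 and -0.89 against -0.72 and -1.32, and its groups overlapped. *Slc43a2* (LAT4), a uniporter of branched-chain amino acids and phenylalanine, had levels of -0.64 and 1.11 in the IELs and 1.19 and 1.56 in the SPLs. It was lower on both IEL arrays, with a difference of -2.20 on slide 1 and of only -0.08 on slide 2 (log2 fold change -1.14, SE 0.65). *Slc43a1* (LAT3) differed by 0.07 and *Slc7a8* (LAT2) by -0.13, both with overlapping groups. The direction of *Slc43a1* turned with normexp (-0.50) and without IEL replicate 2 or SPL replicate 2, and that of *Slc7a8* turned with normexp on fewer spots (0.35) and without SPL replicate 1 (0.39).

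The neutral amino acid carriers of systems ASC, A and N import glutamine, alanine, serine and asparagine. Of 7 genes, 3 were higher on both IEL arrays and 1 was lower (24.6% of all genes in each direction). The median was 0.34 (-0.91 with normexp). *Slc1a5* (ASCT2), the glutamine exchanger of T cells, had levels of 4.04 and 3.70 in the IELs and of 3.62 and 3.62 in the SPLs, so that the IELs were higher by 0.42 on slide 1 and 0.08 on slide 2. *Slc38a1* (SNAT1) gave 5.18 and 4.57 against 4.49 and 4.54, a gap of similar size, but among its 5 tested probes only 2 were higher in the IELs. *Slc38a2* (SNAT2), a carrier that cells raise when amino acids are scarce, had levels of 5.72 and 4.63 in the IELs and 4.57 and 5.11 in the SPLs. These groups overlapped (log2 fold change 0.34, SE 0.47), and the difference turned to -0.21 without IEL replicate 1.

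*Slc38a5* (SNAT5), an exporter and importer of glutamine, histidine and glycine that is also known from red cell precursors, had levels of -7.44 and -3.23 in the IELs and of -3.02 and -3.19 in the SPLs. IEL replicate 1 was not above background, whereas IEL replicate 2 was within 0.21 of both SPL arrays, and the fitted difference of -2.23 (SE 1.44), with -4.25 on slide 1 and -0.21 on slide 2, rests on that dim array. The red cell gene *Alas2*, which makes the first enzyme of heme synthesis in these precursors, stood at -5.41 and 0.13 in the IELs and 0.48 and 0.60 in the SPLs, and *Hbb-b1* at -0.57, 5.69, 6.05 and 6.26. All 4 red cell markers were lower on both IEL arrays, and their part in the difference of *Slc38a5* was not tested. The dim carriers *Slc38a3*, *Slc38a4* and *Slc1a4* differed by 0.41, 0.50 and 0.20, and all turned negative with normexp.

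Carriers of cationic amino acids and cystine had the lowest median of the role lists. Of 4 genes, 3 were tested, 0 were higher and 2 were lower on both IEL arrays (24.6% of all genes in each direction). The median was -0.77 (-0.93 with normexp and 0.06 with normexp on fewer spots). *Slc7a11* (xCT), the light chain that imports cystine in exchange for glutamate and is a known target of ATF4, had levels of -7.67 and -5.74 in the IELs and -5.30 and -4.50 in the SPLs. The IELs were lower on both slides, with fitted differences of -3.17 and -0.44 (log2 fold change -1.80, SE 0.74), but IEL replicate 1 was not above background and neither were the other 3 probes for this gene on any array, and normexp on fewer spots gave 0.16. *Slc7a3* (CAT3) gave -4.74 and -4.15 against -3.83 and -3.53, lower on both slides, with a mean difference of 0.064 in place of -0.77 by normexp on fewer spots. The arginine importer *Slc7a1* (CAT1) did not separate the groups, with 1.39 and 1.17 in the IELs and 1.39 and 1.46 in the SPLs (difference -0.14, SE 0.24), and its 2 tested probes pointed in opposite directions.

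The 250 bases before the start sites are shown for *Slc6a19*, *Slc38a5* and *Slc7a11*, which had the lowest fitted values. They are also shown for *Slc38a7* and *Slc3a2*, which were higher in the IELs but were not picked by rank. *Slc6a8*, *Slc1a2* and *Slc38a8* had higher fitted values than both, and *Slc43a3* had a higher one than *Slc3a2*. The sequences were taken from RefSeq windows on GRCm38.p6, which held 44 of the 62 genes and 35 of the 44 tested ones. *Slc6a8* had no window. Capitals mark matches, on either strand, to the response element of C/EBP and ATF factors (CARE, TGATGNAAN) or to the E-box CACGTG, the letters that MYC and the lysosomal factor TFEB recognize. The motifs share no letters at any site shown.
Slc7a11, chr3:50443614-50443863, minus strand: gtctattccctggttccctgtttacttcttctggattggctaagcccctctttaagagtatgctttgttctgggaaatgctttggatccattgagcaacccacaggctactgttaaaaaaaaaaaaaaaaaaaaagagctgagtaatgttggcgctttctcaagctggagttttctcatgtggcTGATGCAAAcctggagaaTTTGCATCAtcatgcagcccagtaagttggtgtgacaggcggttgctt
Slc38a5, chrX:8271131-8271380, plus strand: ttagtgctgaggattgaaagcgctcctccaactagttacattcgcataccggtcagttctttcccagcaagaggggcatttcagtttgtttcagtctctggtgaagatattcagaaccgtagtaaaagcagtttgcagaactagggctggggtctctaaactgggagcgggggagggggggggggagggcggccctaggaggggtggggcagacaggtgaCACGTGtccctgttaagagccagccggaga
Slc38a7, chr8:95853492-95853741, minus strand: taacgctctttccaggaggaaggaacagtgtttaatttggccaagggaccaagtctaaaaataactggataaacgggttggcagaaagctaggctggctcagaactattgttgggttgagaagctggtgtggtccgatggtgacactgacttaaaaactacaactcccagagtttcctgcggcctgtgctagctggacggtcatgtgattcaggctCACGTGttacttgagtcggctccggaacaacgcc
Slc3a2, chr19:8713898-8714147, minus strand: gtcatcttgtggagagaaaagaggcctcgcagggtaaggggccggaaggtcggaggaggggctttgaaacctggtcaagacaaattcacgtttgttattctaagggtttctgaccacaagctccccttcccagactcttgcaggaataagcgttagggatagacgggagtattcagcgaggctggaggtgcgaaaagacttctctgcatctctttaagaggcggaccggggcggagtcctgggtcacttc
Slc6a19, chr13:73692637-73692886, minus strand: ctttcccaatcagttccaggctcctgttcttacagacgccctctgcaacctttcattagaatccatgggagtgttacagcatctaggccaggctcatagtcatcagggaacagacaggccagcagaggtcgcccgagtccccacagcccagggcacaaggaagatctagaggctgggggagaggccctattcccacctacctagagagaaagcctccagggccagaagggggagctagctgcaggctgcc
The *Slc7a11* window held CARE letters at 2 places, starting at -66 and -48 from the start site, on opposite strands. Windows with CARE letters were found for 3 of 44 carrier genes (*Slc7a11*, *Slc7a7* and *Slc1a4*), against 4.5% of all 27025 genes with a window (3.95% of all windows). E-boxes were found for 9 of 44 carrier genes, against 8.09% of all genes with a window (7.15% of all windows), with those of *Slc38a5* and *Slc38a7* starting at -30 and -34. No match in *Slc3a2* and *Slc6a19* says only that these letters were not in the window.

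The brush border carriers take up amino acids from the gut lumen at the surface of enterocytes. Of 8 genes on this list, 5 were tested, with a median of 0.43 (-0.79 with normexp). On both IEL arrays 4 were higher and 1 was lower, against 24.6% of all genes in each direction. *Slc6a19* (B0AT1), the main importer of neutral amino acids in enterocytes, had levels of -6.53 and -1.44 in the IELs and -0.88 and -0.29 in the SPLs. It was thus not above background in IEL replicate 1 and bright on the other 3 arrays, with a fitted difference of -6.24 on slide 1 and -0.56 on slide 2 (log2 fold change -3.40, SE 1.75), the first of which has no exact size. This is the array with the highest sum of epithelial markers and the lowest sum of red cell and B cell markers. The B cell gene *Ms4a1* had the same pattern, at -6.15 and 2.27 in the IELs and 2.60 and 2.40 in the SPLs. The part of any of these cells in the *Slc6a19* value was not tested. The probe for collectrin (*Tmem27*), a partner of this carrier at the membrane, was above background on none of the 4 arrays, and neither was that for the peptide carrier *Slc15a1*.

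The heteromer of *Slc3a1* (rBAT) and *Slc7a9* imports cystine and dibasic amino acids in the gut and kidney. *Slc7a9* had levels of -2.87 and -3.78 in the IELs and -3.95 and -3.82 in the SPLs, and *Slc3a1* gave -3.04 and -3.07 against -3.53 and -3.43. *Slc6a14* (ATB0,+) gave -2.98 and -3.71 against -3.83 and -3.93. The 3 genes were higher on both IEL arrays by 0.56, 0.43 and 0.54 on average, and all 3 turned negative with normexp. They were above background on all arrays. Probes without signal had an offset of 0.56, and its part in these 3 values was not tested. All 16 epithelial markers were also higher on both IEL arrays, with a median difference of 3.05 (-0.06 with normexp, with 6 of 16 above 0, and 1.70 with normexp on fewer spots), and their part in the brush border values was not tested. *Slc1a1*, *Slc6a20a* and *Slc6a20b* were above background on at most 1 array.

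Lysosomal carriers release amino acids from the lysosome and report its content to mTORC1. They were listed together with other intracellular carriers. All 6 genes were tested, with a median of 0.42 (0.18 with normexp). On both IEL arrays 5 were higher and 0 were lower, against 24.6% of all genes in each direction. *Slc38a7* (SNAT7), the lysosomal exporter of glutamine, had levels of 0.55 and -0.40 in the IELs and -0.81 and -1.37 in the SPLs. Both IEL arrays were higher, by 1.92 on slide 1 and 0.41 on slide 2 (log2 fold change 1.17, SE 0.43, a 2.24-fold difference), and no alternative turned its direction. *Slc36a1* (PAT1), a proton-coupled exporter of small amino acids that also serves the brush border, gave -0.28 and -0.63 against -0.85 and -0.92. The arginine sensor *Slc38a9* gave 0.40 and 0.30 against 0.01 and -0.13 on its brightest probe (difference 0.41, SE 0.23), but the other 3 of its 4 tested probes were lower in the IELs and the mean over its probes was -0.39. *Slc36a4* (PAT4) was higher by 0.69, with -1.34 and -2.12 in the IELs and -2.45 and -2.38 in the SPLs, and turned to -0.35 with normexp. The bright *Slc38a10* was higher by 0.16, and *Slc7a14* differed by 0.09 with overlapping groups.

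Carriers of glutamate, glycine, taurine, creatine and neurotransmitters include *Slc6a8*, the gene with the highest fitted value among the carriers. Of 16 genes, 10 were tested, with a median of 0.40 (-0.84 with normexp). On both IEL arrays 6 were higher and 1 was lower, against 24.6% of all genes in each direction. *Slc6a8*, the creatine importer, had levels of -0.85 and -2.46 in the IELs and -3.63 and -3.73 in the SPLs (probe at chrX:70927598-70927657 on mm9). The IELs were higher by 2.87 on slide 1 and by 1.17 on slide 2, and the mean log2 fold change of 2.02 (SE 0.59) was a 4.06-fold difference, although normexp gave -0.24. Together with *Slc38a8* it was 1 of the 2 carriers that were at least 2-fold higher on both slides (2.13% of all genes), and 0 carriers were 2-fold lower on both (0.314% of all genes). *Slc1a2* (GLT-1), the glutamate importer of astrocytes, gave -4.37 and -4.60 against -5.49 and -6.94 (log2 fold change 1.73, SE 0.54), but it was above background on only 1 of the 2 SPL arrays, the other 3 probes of this gene were too dim to be tested and normexp gave -0.89.

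The taurine importer *Slc6a6* was brighter, with 2.44 and 1.83 in the IELs and 1.63 and 1.83 in the SPLs. Its IEL arrays were higher on both slides, by 0.61 and 0.21, with IEL replicate 2 and SPL replicate 2 equal to 2 decimals (log2 fold change 0.41, SE 0.31). The glycine importer *Slc6a9* gave -1.41 and -0.59 against -1.07 and -1.33, and its groups overlapped. *Slc6a4*, the serotonin transporter, had levels of -5.64 and -6.11 in the IELs and -4.97 and -4.65 in the SPLs, and was not well above background on either IEL array. It differed by -0.99 on slide 1 and by -1.14 on slide 2 on the log2 scale (fitted difference -1.07, limma, adjusted p = 0.634). The size of this difference is not exact, and normexp on fewer spots gave 0.19. The betaine and GABA carriers *Slc6a12* and *Slc6a13* overlapped between the groups, and the dim *Slc1a6*, *Slc6a7* and *Slc6a11* were higher in the IELs by 0.54, 0.48 and 0.39 and turned negative with normexp.

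Outside these roles, 7 of 15 genes were tested. Of these, 5 were higher and 0 were lower on both IEL arrays (24.6% of all genes in each direction). *Slc43a3*, a carrier of purine nucleobases that shares its family with the leucine uniporters, had levels of -0.50 and -1.12 in the IELs and -1.72 and -2.13 in the SPLs. The IELs were higher by 1.63 on slide 1 and 0.60 on slide 2 (log2 fold change 1.12, SE 0.34). *Slc38a8*, a glutamine carrier known from the eye, gave -4.36 and -3.99 against -5.35 and -6.46 (log2 fold change 1.73, SE 0.45), with 1 of 2 SPL arrays above background and -0.85 with normexp. *Slc7a6os* gave 2.23 and 1.63 against 1.44 and 1.43, and without it 22 of 43 genes were higher on both IEL arrays. *Slc36a3* (-0.72) and *Slc6a16* (-0.12) overlapped between the groups, and *Slc6a16* turned to 0.34 without IEL replicate 1. The 18 genes that were not tested, each above background on at most 2 arrays, included *Slc1a1*, *Slc1a3*, *Slc1a7*, *Slc36a2*, *Slc38a11*, *Slc6a2*, *Slc6a3*, *Slc6a5*, *Slc6a15*, *Slc6a18*, *Slc6a20a*, *Slc6a20b*, *Slc7a2*, *Slc7a4*, *Slc7a10*, *Slc7a12* and *Slc7a13*.

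**Figure D2:**
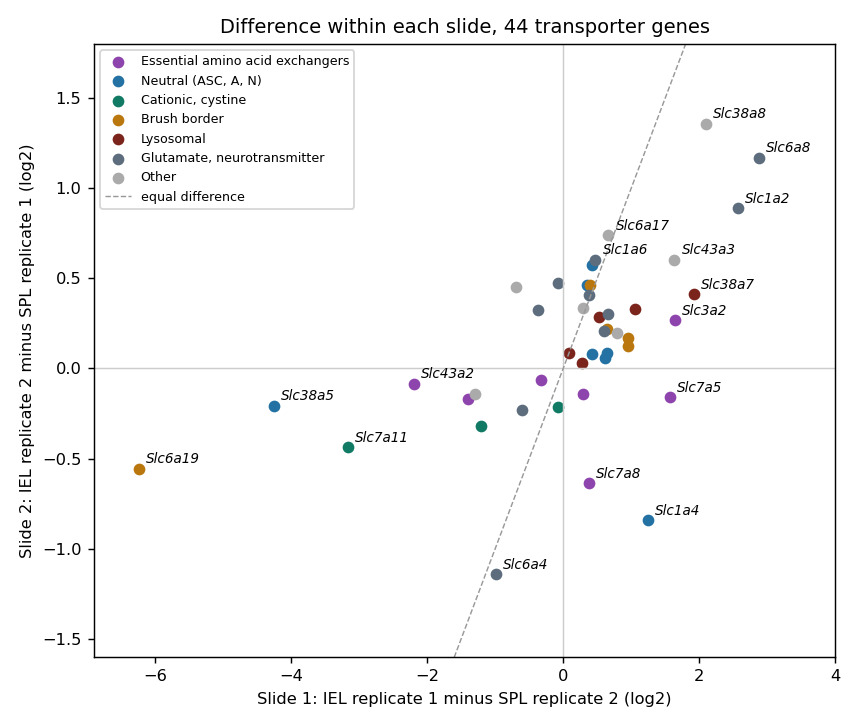
Difference in normalized log2 level between the IEL and the SPL array of slide 1 (horizontal axis) and of slide 2 (vertical axis) for the 44 tested carrier genes, colored by role, with a dashed line of equal difference. The axes differ in scale, since slide 1 reaches from -6.24 to 2.87 and slide 2 from -1.14 to 1.36, and *Slc38a8*, *Slc6a8* and *Slc1a2* are high on both slides.

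Across the carriers, 37 of 44 genes had the same sign on both slides, as did 72.6% of all genes, and the median difference was 0.40 on slide 1 and 0.18 on slide 2. At least 2-fold differences were found for 9 higher and 7 lower carriers on slide 1 (11.6% and 14.2% of all genes), and for 2 higher and 1 lower carrier on slide 2 (3.01% and 0.672%). Since each slide held 1 pool of each group, a difference between the slides cannot be told apart from one between the pools.

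**Figure D3:**
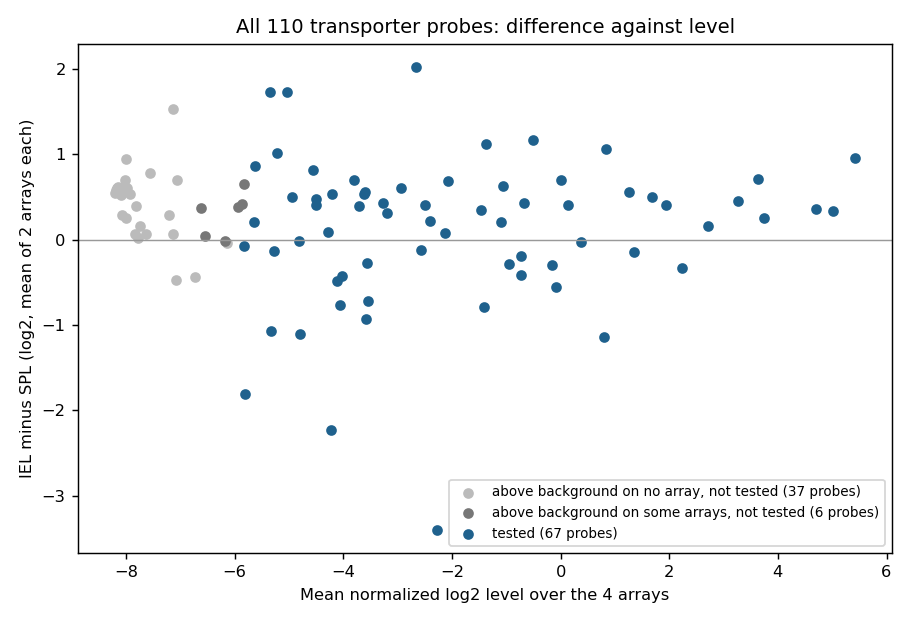
Difference between the mean IEL and the mean SPL level (log2, vertical axis) against the mean level over the 4 arrays (log2, horizontal axis) for all 110 carrier probes, of which 67 were tested. The 37 gray probes that were above background on no array sit mostly above 0, with a median of 0.56.

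The wider pathway was described with 41 further genes for amino acid sensing, uptake partners and the response to amino acid lack, of which 38 were tested. With limma 0 passed the adjusted threshold, and 2 were higher and 1 was lower without adjustment (4.89% and 0.985% of all genes). On both IEL arrays 12 were higher and 7 were lower, against 24.6% of all genes in each direction, and the median was 0.15. Among them were 5 genes of the ATF4 response, which were grouped after their values were known, so that their shared direction is a description only. *Asns*, asparagine synthetase, had levels of 3.46 and 0.10 in the IELs and -1.08 and -2.20 in the SPLs, so that it was higher by 5.66 on slide 1 and by 1.18 on slide 2 (log2 fold change 3.42, SE 1.22). *Trib3*, a pseudokinase induced by ATF4, gave 3.87 and 0.44 against -0.46 and -0.59. *Ddit3* (CHOP), a stress transcription factor, gave 4.44 and 2.13 against 1.43 and 1.49. *Atf4* itself had levels of 4.79 and 3.10 in the IELs and 2.67 and 2.93 in the SPLs (log2 fold change 1.14, SE 0.62). *Chac1*, which degrades glutathione, gave -0.51 and -3.96 against -4.76 and -3.97, and its IEL replicate 2 exceeded SPL replicate 2 by only 0.01. All 5 of these genes were higher on both IEL arrays and on both slides, with a median of 2.13, and *Chac1* turned to -0.48 with normexp. Other genes of the same list that are linked to ATF4 overlapped between the groups, namely *Sesn2* (0.73, SE 0.67), the seryl-tRNA synthetase *Sars* (0.24, SE 0.28) and *Eif4ebp1* (0.09, SE 0.24).

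These stress genes and the carriers they are known with did not all go the same way in the main fit. IEL replicate 1, which was highest for the 5 stress genes, was also highest for *Slc3a2*, *Slc7a5*, *Slc38a2* and the dim *Slc1a4*. The last of these was above background on only 1 IEL array. Other carriers did not follow this order. *Slc7a1* had levels of 1.39 and 1.17 in the IELs and 1.39 and 1.46 in the SPLs. *Slc6a9* was lowest in IEL replicate 1, at -1.41, against -0.59 in IEL replicate 2 and -1.07 and -1.33 in the SPLs. IEL replicate 1 was also lowest for *Slc7a11*, but it was not above background there, and normexp on fewer spots gave a difference of 0.16. *Slc16a10* (TAT1), an exporter of aromatic amino acids, was higher with 0.74 and -0.23 in the IELs and -1.21 and -1.21 in the SPLs (log2 fold change 1.47, SE 0.40), by 1.95 on slide 1 and 0.98 on slide 2. Among the regulators of mTORC1, *Sesn1*, a leucine-sensing inhibitor, had levels of 2.67 and 3.18 in the IELs and 3.65 and 3.98 in the SPLs, a difference of -0.89 (SE 0.30), whereas its relative *Sesn3* gave 4.09 and 3.14 against 2.90 and 2.85. *Mtor* and the Rag GTPases *Rraga* and *Rragc* overlapped between the groups, and *Rptor* and *Rheb* were higher on both IEL arrays by 0.20 and 0.31. *Myc*, which is known to raise carrier transcription in activated T cells, gave 0.85 and 2.88 in the IELs and 3.17 and 3.03 in the SPLs. Its difference of -1.24 (SE 0.72) was -2.18 on slide 1 and -0.29 on slide 2.

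**Figure D4:**
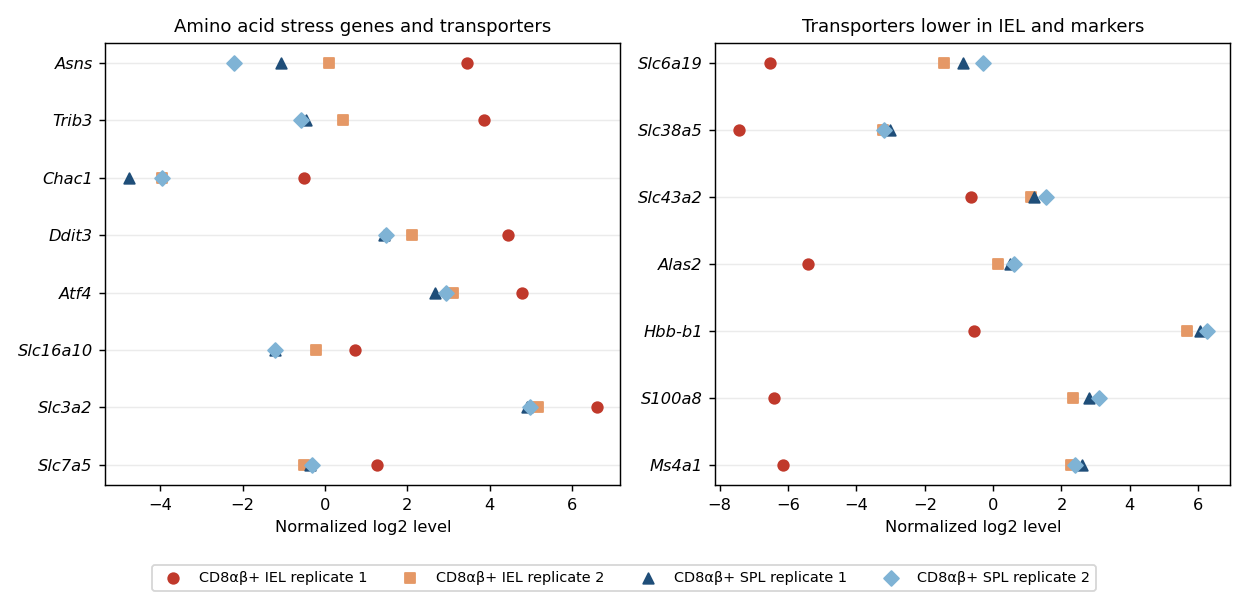
Normalized log2 levels (horizontal axis) on the 4 arrays for ATF4 response genes with carriers of essential and aromatic amino acids (left) and for 3 carriers that were lower in the IELs with markers of red cells, neutrophils and B cells (right). IEL replicate 1 stands highest on the left, at 3.46 for *Asns*, and lowest on the right, at -6.53 for *Slc6a19* and -5.41 for *Alas2*, while IEL replicate 2 lies nearer to the SPL arrays.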

How the data were processed

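Total RNA of the sorted IELs and SPLs was hybridized to 4 Agilent 1-color arrays, 2 per group. The authors deposited scanner files of Feature Extraction (version 10.7.3.1 in the file headers, 10.7.1.1 in the submitters' processing notes) whose processed signal is an intensity with the background subtracted within the array. A second deposited table holds log2 values of the authors with the repeat spots averaged and, as judged from equal extremes on every array (0.53 and 18.8), quantile-normalized arrays, which served as an alternative. The methods name PrimeView chips, MeV and an unpaired test.

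The log2 processed intensity minus each array's 75th percentile over non-control spots (312 and 435 units for the IELs, 479 and 605 for the SPLs) was analyzed. Spots marked as non-uniform or population outliers were left out, repeat spots were averaged, and 0 spots were saturated. On the 4 arrays 63.6% to 69.6% of the probes were well above background. Precision is limited by the number of arrays. Tests were run on 27937 probes, those with both arrays of the IELs or of the SPLs well above background, and a gene was represented by its brightest tested probe. *Slc7a6* has a second tested probe whose spot on SPL replicate 2 was marked, so that the fit dropped that array for this probe, which was not used.

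The IELs were set against the SPLs in limma 3.58.1 (R 4.3.3) on 2 residual degrees of freedom, without a block, two-sided, with Benjamini-Hochberg adjustment over all tested probes at 0.05, after a run on simulated data. The deviations of arrays that share a replicate number from their group means had a correlation of -0.02 across probes. With 2 arrays per group, this value is fixed as the negative of that for arrays that share a slide (0.02). It therefore cannot show whether the replicate numbers pair the samples, and the main fit modeled no pairing. The genes named are the tested members of the role lists and the 5 largest differences in each direction among genes whose groups did not overlap. The members and lists were chosen with earlier results of these data known. Probe symbols are those of the arrays, all 62 of which are current in RefSeq, with positions on mm9. Promoters were taken from RefSeq windows on GRCm38.p6 from 250 bases before to 50 bases after a start site, and the 2 builds were not mixed. Alternatives were normexp with an offset of 50, normexp after leaving out spots over 20 units under the local background, other scalings and filters, the replicate number and the slide as blocks, and leaving out each array.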

Additional observations from a re-analysis of the deposited data

How the results depend on the processing

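With 2 arrays per group, brightness over background and the number of arrays limit every result. The count of 0 carriers past the adjusted threshold held under every alternative except without IEL replicate 2, and over the leave-one-out fits it lay between 0 and 12 carriers and between 0 and 5456 probes. Over the same fits the median log2 fold change of the carriers lay between 0.14 and 0.45, the carriers higher on both IEL arrays (or on the 1 left) between 26 and 27, and those lower between 9 and 12, counts that grow because fewer arrays can overlap. The matching shares of all genes are not given here, so that these counts are a description only. With the replicate number as a block, 0 carriers and 0 probes passed and the median was 0.35, and the block changed no call. With the slide as a block the counts were also 0.

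Of the background corrections, normexp turned the median to -0.70 (all genes moved by -0.31) and left 7 carriers higher. Normexp without spots far below their local background (all genes moved by 0.14) left 4 carriers lower, and keeping only probes above background on all arrays left 3 lower, since dim probes are then not tested. The shares of all genes with these corrections and this filter are not given here, so that the counts are a description only. Testing dim probes as well moved the median of all genes by 0.16. With only genes of a mean level of at least -2, a limit chosen after seeing the data, 10 carriers were higher and 2 lower, of 17. The cause of the normexp reversal was not tested.

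Log2 fold changes that reversed with normexp were those of *Slc6a8* (-0.24), *Slc1a2* (-0.89), *Slc36a4* (-0.35), *Slc7a9* (-0.80), *Slc6a14* (-0.79), *Slc1a6* (-0.82), *Slc38a4* (-0.91), *Slc6a7* (-0.90), *Slc3a1* (-0.66), *Slc38a3* (-0.92), *Slc6a11* (-0.75), *Slc1a4* (-0.98), *Slc6a9* (-0.089), *Slc7a14* (-0.94), *Slc43a1* (-0.50), *Slc7a1* (0.12) and *Slc38a8* (-0.85). With normexp without spots far below local background they were those of *Slc6a12* (0.36), *Slc7a8* (0.35), *Slc6a13* (0.20), *Slc7a3* (0.064), *Slc6a4* (0.19) and *Slc7a11* (0.16). *Slc7a14* reversed with quantile normalization (-0.0098) and with the authors' processed values (-0.0073). With the mean over a gene's probes *Slc38a9* (-0.39) and *Slc7a1* (0.13) reversed. Over the fits that left out 1 array, the log2 fold changes that reversed in at least 1 fit were those of *Slc7a5* (-0.18 to 1.59), *Slc38a2* (-0.21 to 0.88), *Slc1a4* (-0.59 to 1.00), *Slc7a14* (-0.28 to 0.46), *Slc6a12* (-0.33 to 0.29), *Slc7a7* (-1.70 to 0.13), *Slc6a9* (-0.20 to 0.61), *Slc43a1* (-0.22 to 0.36) and *Slc7a8* (-0.65 to 0.39) among the genes named by the rule, and of *Slc6a16* (-0.58 to 0.34) outside it.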
